A study of Rattus norvegicus with 218 samples.

Results

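The subject is 4 subunit genes of the GABA-A receptor, Gabra2 (alpha 2), Gabrb1 (beta 1), Gabre (epsilon) and Gabrq (theta), as measured in neurons cut from the dorsal motor vagal nucleus (DMV) of rats. They were taken by gene symbol, and each of the 4 matched 1 row of a panel of 165 genes. Of the rest of the pathway, the beta subunit gene Gabrb2 and the genes of both enzymes of GABA synthesis, Gad1 and Gad2, are described beside them.

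The GABA-A receptor is a pentameric chloride channel that opens when GABA, the main inhibitory transmitter of the brain, binds at the interface of a beta and an alpha subunit. Alpha and beta subunits are held to be the core of the channel, and a further subunit such as gamma, delta, epsilon or theta completes it and changes its pharmacology. Receptors with epsilon respond weakly to benzodiazepines and can open without GABA, and epsilon and theta are known mainly from hypothalamic and brainstem nuclei. In the DMV, the brainstem nucleus of the vagal motor neurons that project to the organs of chest and abdomen, GABA from the nucleus of the solitary tract restrains motor output. In the RefSeq annotation of the rat (GRCr8) Gabrb1 and Gabra2 lie in 1 cluster of subunit genes on chromosome 14, with Gabra4 between them and Gabrg1 beyond, and Gabre and Gabrq lie in another on chromosome X, with Gabra3 between them.

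Neurons came from adult male Sprague Dawley rats in 3 groups. Naive rats (3 animals) have no surgery in their labels. Rats with remote ischemic preconditioning (RIPC, 3 animals) had the femoral vessels of both legs tied off and released under ketamine and xylazine, and sham rats (4 animals) had the same anesthesia and exposure of the vessels without ligation. The labels put tissue of RIPC rats, and of sham rats though nothing was tied off in them, at 2.5 h after reperfusion. Naive rats have no such time. Any later change is outside these data. Cells stained for NeuN, a nuclear protein of neurons, were cut out by laser from left and right DMV, singly or as pools of a few cells, and each sample was run by multiplex RT-qPCR after preamplification. Each assay gave a threshold cycle (Ct), which falls as transcript rises, or no Ct where nothing was detected.

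After repeat runs of 5 samples were merged there were 213 samples, and 186 of them had a Ct in at least 25% of the 168 assays and were used: 98 single neurons and 88 pools, from 81 naive, 62 sham and 43 RIPC samples. Depth, the number of assays with a Ct, was 43 to 149 per sample, with a median of 69 in single neurons and 96 in pools. Of the 98 single neurons, 54 came from naive replicate 3. The pools of RIPC replicate 1 stood apart with a mean of 65.4 assays, against 93.5 and 99.4 in the other RIPC animals, while its 4 single neurons had the highest mean of any animal, 80.5. One single neuron labelled as RIPC replicate 3 has a title like those of RIPC replicate 2; it had 49 assays with a Ct, and the larger shifts without it are given beside their results. Single neurons carried the neuronal markers, with Camk2a in 96.9% and Scn2a in 95.9%, and 69.4% carried Chat, whose product makes acetylcholine and which defines vagal motor neurons. Gfap, the defining gene of astrocytes and the 1 marker of a non-neuronal cell on the panel, had a Ct in 80.6% of single neurons and 77.3% of pools.

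Gabra2 and Gabrb1 were among the genes most often detected in these neurons, and Gabrq and Gabre were detected less often. Gabrb1, which forms part of the GABA binding interface, had a Ct in 163 of 186 samples (87.6%, Wilson 95% interval 82.1% to 91.6%). Gabra2, an alpha subunit common in forebrain and in motor neurons, had one in 156 (83.9%, 77.9% to 88.5%). Gabrq had one in 132 (71.0%, 64.1% to 77.0%) and Gabre in 94 (50.5%, 43.4% to 57.6%). These intervals cover counting error only, and assays differ in efficiency, so the order of the genes is that of detection, not of transcript number. Ordered by the number of samples with a Ct, Gabrb1 was at rank 20, Gabra2 at 24, Gabrq at 56 and Gabre at 83 of 165 genes, and the median gene had a Ct in 50.5% of samples. Gabrb2 had a Ct in 69.4% of samples, Gad2 in 54.8% and Gad1 in 36.6%.

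The animals differed widely in these shares. Over single neurons and pools together, the share per animal ran from 58.3% to 100% for Gabrb1 with a median of 89.0%, and from 41.7% to 100% for Gabra2 with a median of 80.9%. For Gabrq it ran from 50% to 91.7% (median 67.9%) and for Gabre from 41.5% to 71.4% (median 50%). Gabre was the least detected member by its median over animals, and its range overlapped that of every other member.

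The level of a gene in a sample is its Ct with the sign turned, set against the sample's median of 35 widely detected genes, so that 1 unit is 1 cycle and a higher value means more transcript relative to those genes. Gabra2 and Gabrb1 are themselves among the 35. Levels varied less between samples for these 2 genes, and how far their place among the 35 narrows this was not tested: the SD over all samples with a Ct was 1.06 cycles for Gabrb1 and 1.33 for Gabra2, against a median of 1.68 over the 117 genes compared, and 1.10 for Gabra2 without the RIPC neuron of uncertain animal. Gabrq had an SD of 1.99 and Gabre of 2.60. Gabre ran from -11.2 to 2.18 around a median of -2.11, and 9 of its 94 Ct values were above 20 cycles, against 1 of 156 for Gabra2 and 0 of 163 for Gabrb1.

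The error of a measurement can be seen in the 5 single neurons that were run again. Gabrb1 was called detected in both runs of all 5 neurons, Gabra2 had the same call in 4, Gabrq in 3 and Gabre in 2. Where both runs had a Ct, the runs differed by 0.329 to 4.55 cycles over the 14 pairs of values. In RIPC replicate 2 neuron 4, Gabrb1 read 16.1 cycles in the first run and 11.5 in the second, while Gabra2 had a Ct in the second run only and Gabre in the first only. In naive replicate 3 neuron 27 the runs gave 14.2 and 12.3 cycles for Gabra2, 13.2 and 12.8 for Gabrb1, 16.1 and 15.0 for Gabre, and 14.4 and 11.3 for Gabrq. Calls of Gabre and Gabrq in 1 neuron therefore repeated less often than calls of Gabrb1.

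Most single neurons carried several of the 4 subunits at once. Of 98 neurons, 26 had all 4, 34 had 3, 27 had 2, 8 had 1 and 3 had none (3.06%, 1.05% to 8.62%). Of the 16 possible combinations 3 held most of the neurons, and all 3 contained Gabra2 with Gabrb1. Gabra2 with Gabrb1 and Gabrq was found in 28 neurons (28.6%, 20.6% to 38.2%), all 4 subunits in 26 (26.5%, 18.8% to 36.0%), and Gabra2 with Gabrb1 alone in 22 (22.4%, 15.3% to 31.7%). No other combination was in more than 4 neurons. Of the 26 neurons with all 4 subunits, 3 had them only when their repeat runs were joined, 2 in RIPC replicate 2 and 1 in naive replicate 3, and 23 had them within 1 run. Gabra2 without any other member was in 0 of 98 neurons, which allows a share of up to 3.06% by the limit of 3 counts, while Gabrb1 alone was in 4, Gabrq alone in 3 and Gabre alone in 1.

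**Figure D1:**
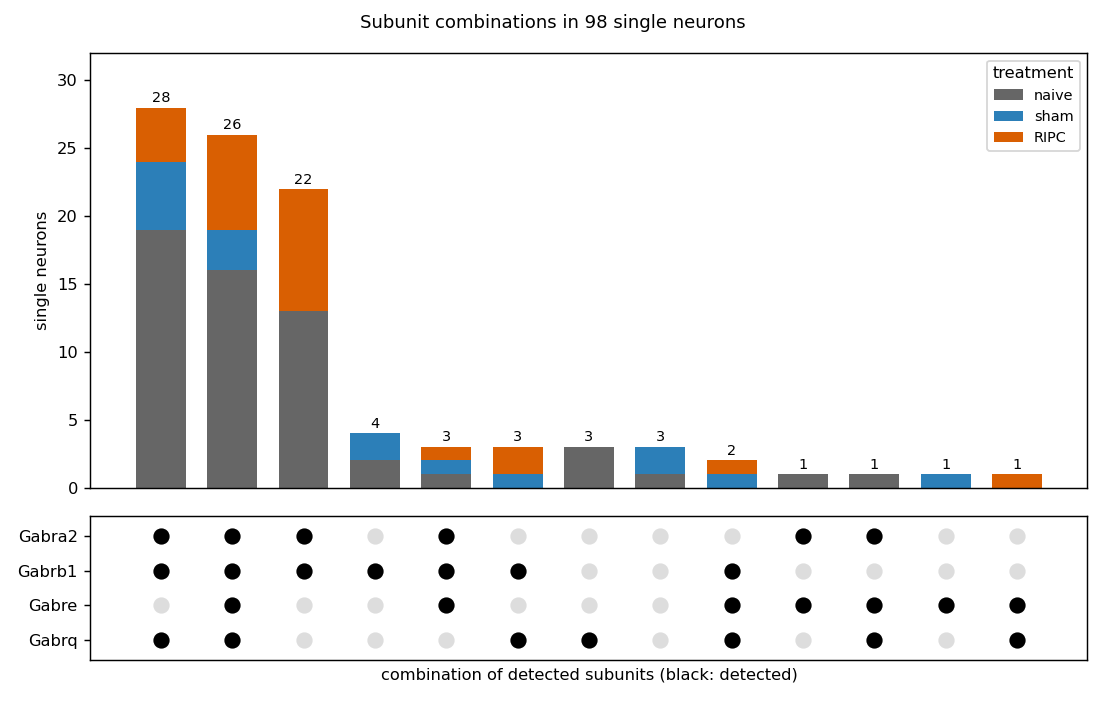
Number of single neurons (vertical axis) with each combination of the 4 subunit genes, stacked by treatment, with the detected members marked in black below each bar. The 3 tallest bars, of 28, 26 and 22 neurons, all contain Gabra2 with Gabrb1, and 54 of the 98 neurons are from 1 naive animal.

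The 3 leading combinations were spread over treatments in different numbers. Gabra2 with Gabrb1 alone was found in 13 of the 57 naive neurons, in 9 of the 25 RIPC neurons (8 of 24 without the neuron of uncertain animal) and in 0 of the 16 sham neurons, and the 22 neurons came from 3 animals. All 4 subunits were in 16 naive, 3 sham and 7 RIPC neurons from 5 animals, among them 3 of the 4 neurons of RIPC replicate 1. Gabra2 with Gabrb1 and Gabrq was in 19 naive, 5 sham and 4 RIPC neurons from 7 animals. Neurons of 1 animal share their source, so these counts were not tested between treatments. The mean number of members per neuron was 2.81 in naive, 2.38 in sham and 2.80 in RIPC neurons.

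The number of subunits found in a neuron moved with its depth. Neurons with none of the 4 had a median of 52.0 other genes detected, those with 1 had 58.0, those with 2 or 3 had 65.0, and those with all 4 had 77.5. Split at the median of other genes, the 49 neurons with more genes and the 49 with fewer had Gabrb1 in 100% and 79.6%, Gabra2 in 91.8% and 73.5%, Gabre in 46.9% and 24.5%, and Gabrq in 69.4% and 61.2%. Gabrq differed least between these sets of neurons and Gabre most. Gabrb2, the other beta subunit, differed more than any member, with 83.7% and 38.8%. The part of depth in the combinations was not tested.

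Detection went together most closely for Gabra2 and Gabrb1, and next for Gabre and Gabrq, which are the pairs that share a chromosome. Gabrb1 had a Ct in 79 of the 81 neurons with Gabra2 (97.5%) and in 9 of the 17 without it (52.9%), a phi coefficient of 0.56. Gabrq had a Ct in 30 of the 35 neurons with Gabre (85.7%) and in 34 of the 63 without it (54.0%), a phi of 0.32. For comparison, phi had a median of 0.087 over all 7381 pairs of the 122 genes detected in 10% to 95% of single neurons, and 80% of the pairs lay between -0.081 and 0.25. The other 4 pairs of members had phi between -0.03 and 0.12, and Gabre had a Ct in 35.2% of neurons with Gabrb1 and in 40% of the 10 without it. The pair Gabre and Gabrq showed a like difference in neurons with more other genes (87.0% against 53.8%) and with fewer (83.3% against 54.1%). For Gabra2 and Gabrb1 only the neurons with fewer genes can show one (94.4% against 38.5%), since all 49 neurons with more genes had Gabrb1.

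Within animals the test is limited by the number of neurons. An animal with at least 3 neurons in each class was available 3 times for Gabre and Gabrq, and Gabrq was more frequent in neurons with Gabre in all 3: 89.5% against 54.3% in naive replicate 3, 100% against 50% in sham replicate 1, and 80% against 33.3% in RIPC replicate 3 (40% without the neuron of uncertain animal, where the mean difference below becomes 41.7). The mean difference was 44.0 percentage points ± 7.77 (SD, n = 3 animals) with an exact two-sided sign-flip p of 0.25, the smallest that 3 animals allow, and an adjusted p of 1.00 over the 6 pairs. The other 5 pairs could be compared within naive replicate 3 only, where Gabrb1 was in 95.9% of neurons with Gabra2 and 40% of the 5 without it. No pair passed a threshold, and with 1 or 3 animals none could.

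All 4 members were more often detected in neurons with Chat than in those without it. For 3 of them the difference was within the range of most genes, for Gabra2 only just. Among the 68 single neurons with Chat and the 30 without it, Gabra2 had a Ct in 92.6% and 60.0%, Gabrq in 76.5% and 40%, Gabre in 45.6% and 13.3%, and Gabrb1 in 95.6% and 76.7%. Over the 122 genes of single neurons the median difference was 5.49 percentage points, with 80% of genes between -10.8 and 32.7. The differences were 18.9 for Gabrb1, 32.3 for Gabre and 32.6 for Gabra2, inside that range, and 36.5 for Gabrq, above it. Gabra2 was at the edge: without the neuron of uncertain animal it had a Ct in 58.6% of neurons without Chat, which widens its difference. Gabrb2 went the same way, at 72.1% and 36.7%. The difference for Gabra2 was in the same direction in all 4 animals with at least 3 neurons of each kind, for Gabre and Gabrq in 3 of 4, and for Gabrb1 in 2, with 1 the other way. Neurons with Chat had a median of 69.0 other genes and those without it 61.0. Gabra2 and Gabrb1 were also at a higher level where detected with Chat, at means of 0.39 and 1.23 cycles against -0.61 and 0.36, where -0.61 becomes -0.11 without the neuron of uncertain animal.

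In neurons with a gene of GABA synthesis the members were less frequent over all neurons, but not in each animal. With Gad1 or Gad2 detected (51 neurons) and with neither (47), Gabra2 had a Ct in 76.5% and 89.4%, Gabre in 31.4% and 40.4%, Gabrq in 62.7% and 68.1%, and Gabrb1 in 88.2% and 91.5%, with medians of 68.0 and 65.0 other genes. The differences were -12.9 percentage points for Gabra2 and -3.25 to -9.05 for the others, where the median gene differed by 0.96 and 80% of genes lay between -11.6 and 19.3. Within the animals with at least 3 neurons of each kind, Gabra2 was higher in 1 and lower in 1, Gabrb1 higher in 1 and lower in 0, Gabre lower in 1 and Gabrq lower in 2. Where detected, Gabra2 and Gabrb1 had mean levels of -0.22 and 0.64 cycles with either gene and of 0.53 and 1.39 with neither. Without the neuron of uncertain animal, which has both Gad genes, the mean of Gabra2 with either gene was 0.0189. Th, whose product starts catecholamine synthesis, went with differences of 4.48 to 10.8 percentage points for the members, near the median of 9.20 over all genes. Of the 14 neurons with the activity marker Fos, 13 had Gabra2, all 14 had Gabrb1, 9 had Gabre (64.3%, against 31.0% of the other 84) and 9 had Gabrq (64.3%, against 65.5%). Neurons with Fos had a median of 90.5 other genes and the rest 64.0, and the median gene was 16.7 percentage points more frequent with Fos, with 80% of genes between 0 and 41.7. The gap of Gabre, 33.3, was inside that range, and by animal Gabre was higher with Fos in 1 and lower in 1. These are descriptions of neurons, most of them from 1 animal, and were not tested.

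Gabre and Gabrq were more frequent in neurons with Gfap, by amounts within the range of most genes. In the 79 neurons with Gfap and the 19 without it, Gabre had a Ct in 40.5% and 15.8% and Gabrq in 69.6% and 47.4%, while Gabra2 had one in 82.3% and 84.2% and Gabrb1 in 91.1% and 84.2%. Over all 122 genes the median difference was 8.56 percentage points, with 80% of genes between -7.57 and 27.5, and the differences of Gabre and Gabrq were 24.7 and 22.3. Neurons with Gfap had a median of 69.0 other genes and those without it 59.0. The part of RNA from other cells in the subunit values was not tested.

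**Figure D2:**
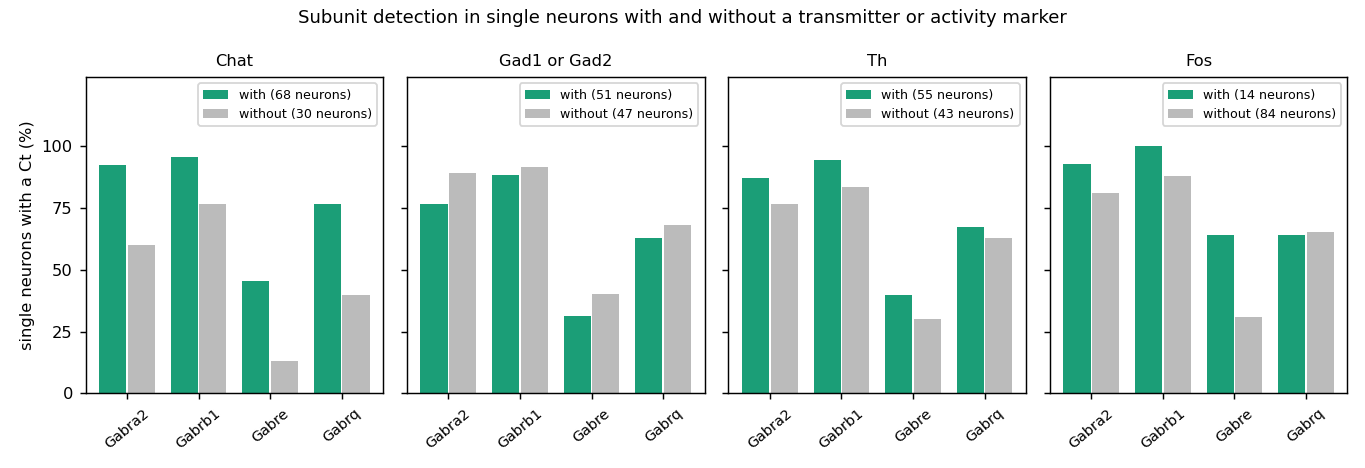
Share of single neurons with a Ct (vertical axis, %) for each member, in neurons with a marker (green) and without it (grey). Each of the 4 members is more frequent with Chat, with gaps of 18.9 to 36.5 percentage points, and none is more frequent with Gad1 or Gad2.

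Single neurons were next set against pools of the same animals, to ask which subunits are found more often when a sample holds more cells. Gabre was the member that differed most: its share was 36.5% ± 21.5 in single neurons and 67.5% ± 21.6 in pools (SD, n = 8 animals), a difference of -31.0 percentage points (SE 10.8), lower in single neurons in 7 of 8 animals. That difference missed the threshold across all genes (limma adjusted p = 0.0592, exact sign-flip p = 0.0469). Gabra2 had 68.6% ± 21.5 against 84.4% ± 25.5, a difference of -15.8 (SE 9.81, limma adjusted p = 0.244), and it too was lower in 7 of 8. Gabrq had 67.0% ± 23.4 against 76.9% ± 27.6 (adjusted p = 0.569, lower in 6 of 8) and Gabrb1 had 86.8% ± 15.5 against 82.7% ± 20.2 (adjusted p = 0.735, lower in 4 of 8). None of the 4 members was called, where limma called 23 of 132 genes (17.4%), all of them lower in single neurons, at an adjusted p under 0.05, and the median over all genes tested was -15.2 percentage points. Genes with the smallest p were Cebpa (-37.1 percentage points, SE 7.63), Kcna1 (-39.2, SE 8.27) and Htr1f (-41.9, SE 9.23), each at an adjusted p of 0.0117. Gabrb2 was called: it fell by 29.8 percentage points from pools to single neurons (SE 9.69, adjusted p = 0.0455), in 7 of 8 animals. A difference in call between subunits was not itself tested.

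RIPC replicate 1 had all 4 members more often in single neurons than in pools, and for Gabra2 and Gabre it was the 1 animal of 8 that did. Its single neurons and pools had Gabra2 in 75.0% and 25%, Gabrb1 in 100% and 37.5%, Gabre in 75.0% and 37.5%, and Gabrq in 100% and 25%. Without this animal Gabre fell by 40.8 percentage points (limma adjusted p = 0.00396), Gabra2 fell by 25.2 (adjusted p = 0.0233), Gabrq had a difference of -22.0 (adjusted p = 0.0615), and 57 genes were called in place of 23. Gabrb1 was at -4.31. Gabre and Gabra2 passed the threshold in this fit, which leaves out the 1 animal that ran the other way for both. Many other genes passed in it too, so passing was not particular to these members. Without sham replicate 1, 5 genes were called. Without naive replicate 2, naive replicate 3, sham replicate 4 or RIPC replicate 2 the number was 12 or 13.

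**Figure D3:**
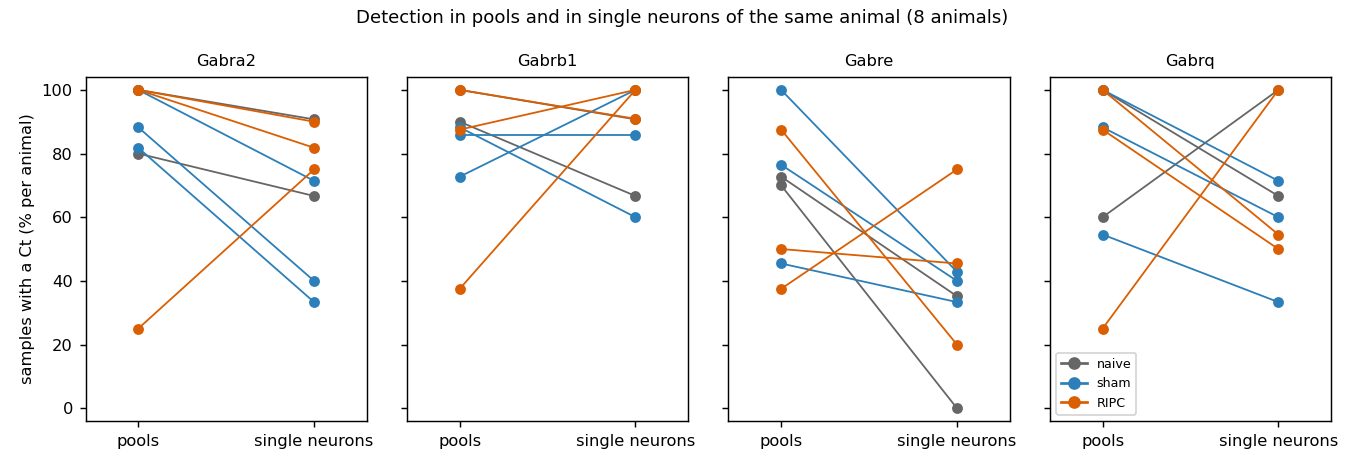
Share of samples with a Ct (vertical axis, % per animal) in pools and in single neurons, 1 line per animal, coloured by treatment. For Gabre 7 of 8 lines fall from pools to single neurons, and RIPC replicate 1 rises for each member.

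Detection was also set out by the number of cells in a sample. Gabre had a Ct in 35.7% of single neurons, 58.3% of samples of 2 cells, 71.4% of 3 cells, 73.9% of 4 cells and 64.1% of 5 or more. Gabrq had one in 65.3%, 58.3%, 78.6%, 73.9% and 84.6% of the same classes. Gabra2 and Gabrb1 were between 79.5% and 92.9% in every class. The 5 classes held 98, 12, 14, 23 and 39 samples, and samples of an animal are not replicates, so no test was made.

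Where it was detected, Gabra2 had a lower mean level in single neurons than in the pools of every animal compared. The means were -0.18 ± 0.71 and 0.46 ± 0.37 cycles (SD, n = 7 animals), a difference of -0.64 (SE 0.28), lower in 7 of 7 animals, with an exact sign-flip p of 0.0156, the smallest that 7 animals allow. Across all genes it was not called (limma adjusted p = 0.516), as was none of the 83 genes tested (0.0%), with 7 (8.43%) at an unadjusted p under 0.05, and the median gene differed by 0.15 in the other direction. Without the RIPC neuron of uncertain animal the difference was -0.50 (adjusted p = 0.503). Differences for the other members were 0.04 cycles for Gabrb1 (SE 0.33, n = 8), 0.22 for Gabre (SE 0.59, n = 5) and -0.74 for Gabrq (SE 0.71, n = 7).

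The treatment contrasts ask whether RIPC changes subunit expression in the DMV, and they were made on the share of each animal's pools with a Ct. The study itself singled out Gabra2 on these samples, as lower after RIPC in pools and with single cells going the same way. Its values here are therefore no independent evidence of a direction. In a pool, fewer cells that carry a transcript and less transcript per cell cannot be told apart. Gabra2 was detected in 66.7%, 80% and 100% of the pools of the 3 naive animals, in 100%, 81.8%, 100% and 88.2% of those of the 4 sham animals, and in 25%, 100% and 100% of those of the 3 RIPC animals. All but 1 animal thus had Gabra2 in most of its pools, and the low value was that of RIPC replicate 1, with a Ct in 2 of 8 pools. The group means were 82.2% ± 16.8, 92.5% ± 9.03 and 75.0% ± 43.3 (SD), and RIPC minus sham was -17.5 percentage points (SE 17.0, limma adjusted p = 0.994, exact permutation p = 0.714, where 0.0286 is the smallest that 3 against 4 animals allow).

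Gabrb1 was detected in 100%, 90% and 100% of naive pools, in 85.7%, 72.7%, 100% and 88.2% of sham pools, and in 37.5%, 87.5% and 100% of RIPC pools, by animal. RIPC minus sham was -11.7 percentage points (SE 15.1, limma adjusted p = 0.994). Gabre was at 66.7%, 70.0% and 72.7% in naive, at 100%, 45.5%, 54.5% and 76.5% in sham, and at 37.5%, 87.5% and 50% in RIPC animals, so the naive animals lay inside the range of both operated groups. Its difference was -10.8 (SE 15.6, adjusted p = 0.994). Gabrq was at 66.7%, 60.0% and 100% in naive, at 100%, 54.5%, 90.9% and 88.2% in sham, and at 25%, 87.5% and 100% in RIPC animals, a difference of -12.6 (SE 17.7, adjusted p = 0.994). Groups overlapped for all 4 members in all 3 contrasts, as they did for all but 3, 5 and 5 of the 130 genes tested (2.31% for RIPC against sham and 3.85% for the contrasts with naive).

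All 4 members had a lower share in RIPC than in sham pools, with a median of -12.1 percentage points, but so had 93 of the 130 genes tested (71.5%), whose median was -5.90. Limma called 0 of 130 genes (0.0%) in each contrast at an adjusted p under 0.05, and 1 (0.769%), 4 (3.08%) and 2 (1.54%) at an unadjusted p under 0.05 for RIPC against sham, RIPC against naive and sham against naive. No member was among these, and neither were Gabrb2, Gad1 and Gad2. Against naive, RIPC differed by -7.22 percentage points for Gabra2, -21.7 for Gabrb1, -11.5 for Gabre and -4.72 for Gabrq (SE 16.1 to 18.9). Over the 130 genes the median for RIPC minus naive was 0.69, with 48.5% of genes lower in RIPC. Sham differed from naive by 10.3, -10.0, -0.68 and 7.87 (SE 15.1 to 17.7), where the median gene differed by 7.43 and 26.9% of genes were lower in sham. Without RIPC replicate 1, RIPC minus naive was 17.8 percentage points for Gabra2, -2.92 for Gabrb1, -1.05 for Gabre and 18.2 for Gabrq, and RIPC minus sham was 7.49 percentage points for Gabra2, 7.08 for Gabrb1, -0.37 for Gabre and 10.3 for Gabrq. Without naive replicate 3, RIPC minus naive turned to 1.67 for Gabra2 and 7.50 for Gabrq, and without RIPC replicate 2 it was -26.0 for Gabre. The pools of RIPC replicate 1 also had the lowest share for Gfap in their group, where Gfap ran from 25% to 100% over RIPC animals.

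In single neurons the sign of RIPC minus sham was the opposite for all 4 members, and the contrast between single neurons and pools was not tested. Gabra2 had a Ct in 75.0%, 90% and 81.8% of the single neurons of the 3 RIPC animals and in 71.4%, 33.3% and 40% of those of the 3 sham animals with at least 2 neurons, so that these groups did not overlap, as for 9 of 122 genes (7.38%). The difference was 34.0 percentage points with an exact permutation p of 0.10, the smallest that 3 against 3 animals allow. It rests on 8 of 15 sham and 21 of 25 RIPC neurons, and for Gabra2 the naive animals were at 66.7% and 90.7%. Gabrb2 did not overlap either, at 61.2% ± 10.2 in RIPC and 32.1% ± 11.5 in sham animals (SD, n = 3 each), with the same exact p. RIPC minus sham was 15.1 percentage points for Gabrb1 (exact p = 0.40), 8.09 for Gabre (exact p = 0.70) and 13.3 for Gabrq (exact p = 0.70), and these 3 overlapped. Across the 122 genes tested on single neurons, limma called 0 genes (0.0%), with 7 (5.74%) at an unadjusted p under 0.05 and a smallest adjusted p of 0.709. Sham neurons had a mean of 66.7 assays and RIPC neurons of 72.6, and Gfap was in 95% and 90% of them by mean of animal shares.

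**Figure D4:**
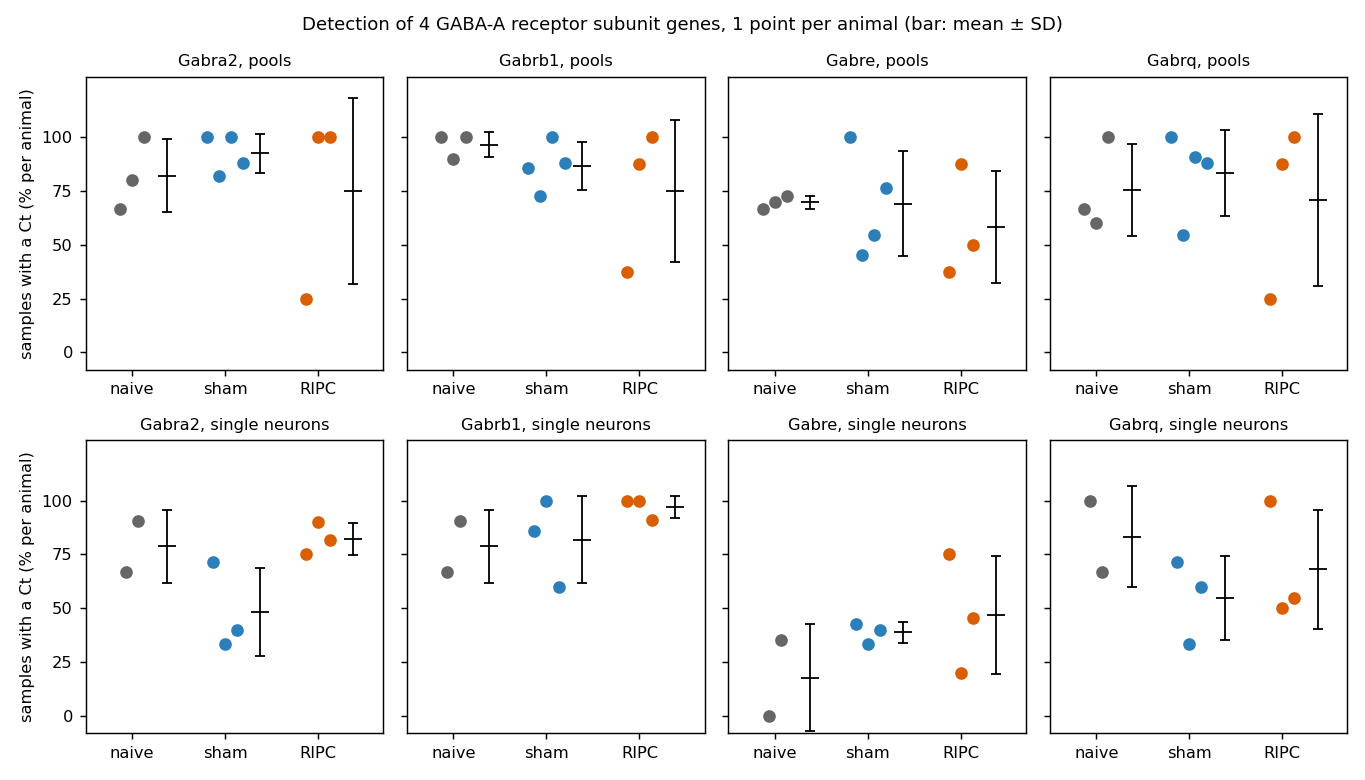
Share of samples with a Ct (vertical axis, % per animal) by treatment, 1 point per animal with at least 2 samples, with the group mean ± SD beside the points, for pools (upper row) and single neurons (lower row). RIPC replicate 1 is the low orange point of the upper row, at 25% for Gabra2 and Gabrq, and the sham and RIPC points of Gabra2 do not overlap in the lower row.

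Levels in pools, where a Ct was present, were compared in the same way. Gabra2 had mean levels of 0.52, -0.26 and 0.81 cycles in the naive animals, 0.33, -0.84, -0.51 and 0.54 in the sham animals, and 0.40, 0.87 and 0.55 in the RIPC animals. RIPC was highest and sham lowest, at group means of 0.61 ± 0.24 and -0.12 ± 0.66 (SD), and they overlapped: the difference of 0.73 (SE 0.54) had a limma adjusted p of 0.977 and an exact permutation p of 0.171. The sign of this difference was opposite to that of the share, and the level left out the 6 RIPC pools of replicate 1 without a Ct. Gabrb1 had group means of 0.78 ± 0.47 in naive, 0.93 ± 0.43 in sham and 0.49 ± 1.29 in RIPC animals, where RIPC replicate 1 was at -0.93 and the others at 1.58 and 0.82. Gabrq had 0.03 ± 1.66, -0.46 ± 0.31 and -0.49 ± 0.91, with RIPC minus sham at -0.03 (SE 0.73).

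In pools Gabre had the widest difference in level of the 4 members, between the operated groups and naive animals. The naive animals were at -0.22, -2.67 and -1.73 cycles, the sham animals at -4.34, -2.15, -2.25 and -3.64, and the 2 RIPC animals with at least 2 pools with a Ct at -2.82 and -3.51. The level was lower than naive by 1.55 in sham (SE 0.74, exact permutation p = 0.171) and by 1.63 in RIPC animals (SE 0.88, exact permutation p = 0.20), whose values did not overlap those of naive animals, as for 13 of 99 genes (13.1%). RIPC replicate 3, left out for having 1 pool with a Ct, was at -1.85, inside the naive range. Neither passed limma's adjusted p, at 0.984 and 0.931, and RIPC minus sham was -0.07 (SE 0.84). The naive mean rests on 17 pools, of which those of naive replicate 1 are 2, and without that animal the differences were -0.89 for sham and -0.97 for RIPC. Leaving out Ct values over 20 cycles, an alternative chosen after seeing the data, gave -1.25 and -1.28. Sham and naive animals then did not overlap, as for 5 of 98 genes (5.1%), with an unadjusted exact permutation p of 0.0286, the smallest allowed, in 1 of 21 such tests of members. RIPC and naive animals did not overlap there either, as for 13 of 93 genes (14.0%). Groups of the other members overlapped in every contrast, where 7.07% of genes did not overlap between RIPC and sham and 6.06% between sham and naive. Of the 99 genes tested by level, 0 (0.0%) were called in each contrast, and 3 (3.03%), 4 (4.04%) and 0 (0.0%) were at an unadjusted p under 0.05, with no member among them.

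**Figure D5:**
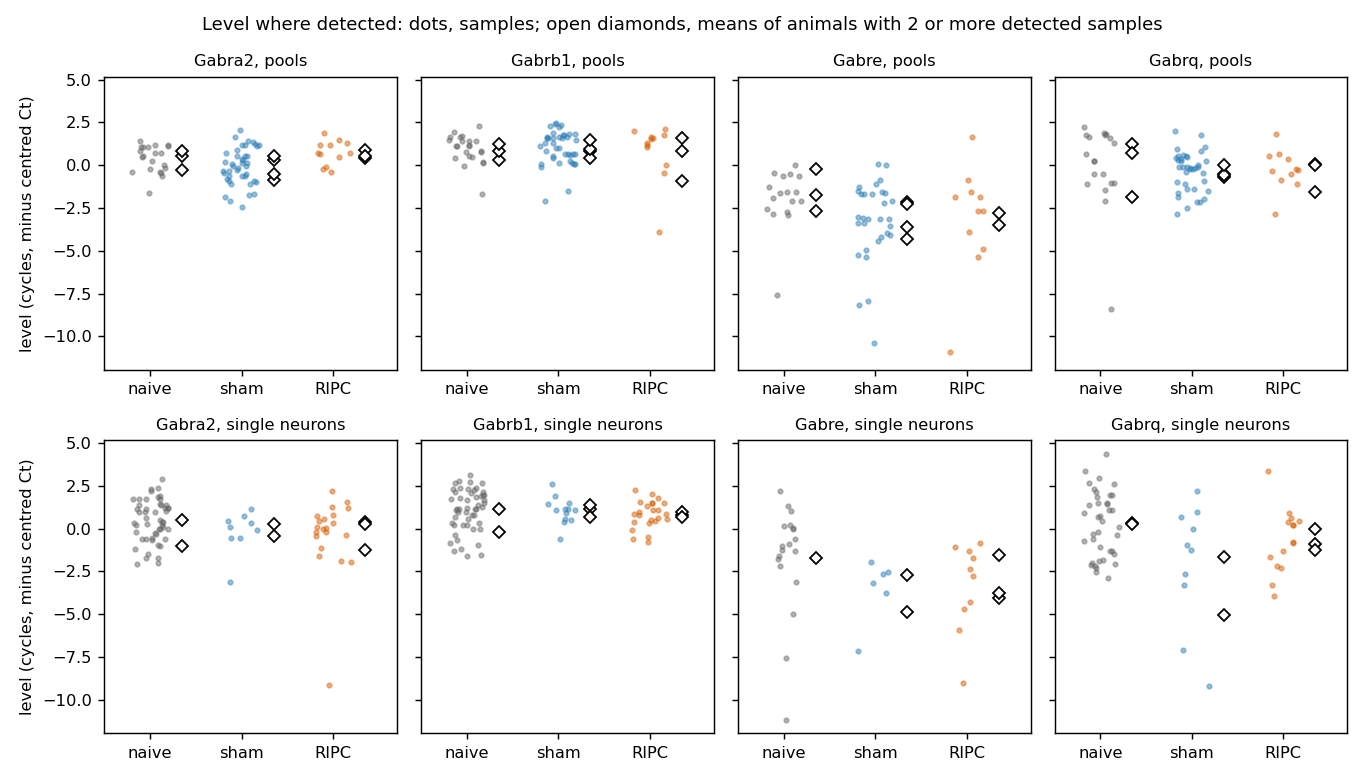
Level of each member (vertical axis, cycles relative to the 35 centring genes, higher is more transcript) in every sample with a Ct, by treatment, for pools and single neurons. Open diamonds are means of animals. Gabra2 and Gabrb1, which are among the centring genes, have SDs of 1.33 and 1.06, with 1 neuron of Gabra2 down at -9.11, and Gabre reaches from 2.18 down to -11.2.

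In single neurons the level of Gabrq was -5.04 and -1.66 cycles in the 2 sham animals with at least 2 detected neurons, and -0.92, -1.27 and -0.03 in the RIPC animals. These did not overlap, as for 5 of 53 genes (9.43%), with a difference of 2.61 cycles and an exact permutation p of 0.10, the smallest allowed. The 2 naive animals with such neurons were at 0.32 and 0.25, above both other groups and without overlap. Sham minus naive was -3.64 cycles (exact permutation p = 0.333, the smallest that 2 against 2 animals allow), where 9 of 53 genes (17.0%) did not overlap, and RIPC minus naive was -1.03 (exact permutation p = 0.20, where 0.10 is the smallest allowed), where 6 of 53 (11.3%) did not. These differences were wider than those of Gabrq in pools, and a difference between sample types was not tested. Limma called 0 of the 53 genes (0.0%), with 4 (7.55%) at an unadjusted p under 0.05. The sham values are means of 3 neurons of sham replicate 4 and 5 of sham replicate 1, and each holds 1 late Ct, of 24.7 cycles (level -9.22) and 23.1 cycles (-7.07). Without Ct values over 20 cycles the sham animals were at -2.95 and -0.31, they overlapped the RIPC animals, and RIPC minus sham was 0.89 and sham minus naive -1.92. The other 2 sham animals, with 1 detected neuron each, were at 2.19 and 0.65, above both naive means. Gabra2 was at -0.44 and 0.29 in sham and at 0.38, 0.26 and -1.23 in RIPC animals, and the last of these contains the neuron of uncertain animal, which was at -9.11 with a Ct of 24.3, the latest for this gene. RIPC minus sham was -0.12 cycles with that neuron and 0.20 without it.

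The left and right DMV were compared within each of the 9 animals with at least 2 samples of both sides, single neurons and pools together. Naive replicate 1, with 1 sample from the right, was left out. The mix of single neurons and pools was not matched between the sides, and Gabre had a higher share in pools. Gabre was the member that differed most: its share was 59.1% ± 13.4 in left samples against 46.7% ± 12.1 in right ones (SD, n = 9 animals), with left higher in 6 animals, equal in 3 and lower in 0. The differences were 38.1 percentage points in RIPC replicate 3, 28.6, 20.8 and 15.0 in sham replicates 2, 1 and 4, 7.14 and 1.80 in naive replicates 2 and 3, and 0 in the rest. The mean of 12.4 (SE 5.94) had an unadjusted limma p of 0.0468 and an exact sign-flip p of 0.0312, but an adjusted p of 0.979. Limma called 0 of 132 genes (0.0%), and 6 (4.55%) had an unadjusted p under 0.05. Gabra2 had 84.4% ± 20.5 on the left and 76.1% ± 17.0 on the right, with left higher in 5 of 9 animals. Gabrb1 differed by 2.74 percentage points (SE 6.23) and Gabrq by 2.45 (SE 6.76), each with animals on both sides of 0. None of the 4 members had a lower mean on the left, whereas 53.0% of the 132 genes did, with a median of -0.29 percentage points.

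Levels did not separate the sides for any member. Left minus right was -0.14 cycles for Gabra2 (SE 0.28), 0.19 for Gabrb1 (SE 0.24), 0.07 for Gabre (SE 0.55) and 0.22 for Gabrq (SE 0.34), with n = 9 and adjusted p-values from limma of 0.929 to 0.964, where 0 of 108 genes (0.0%) were called and 2 (1.85%) had an unadjusted p under 0.05. The test of whether the side difference depends on treatment gave adjusted p-values from limma of 0.997 for the share of each member and 0.968 to 0.980 for its level. No gene of 132 by share or 108 by level passed that test, and 3 (2.27%) and 2 (1.85%) had an unadjusted p under 0.05. Among the 26 neurons with all 4 subunits 14 were from the left and 12 from the right, and the 3 neurons with none were from the right.

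Genes whose level ran most like that of each member were named by Pearson's r over samples with a Ct for both genes, as a description without a test, since such samples share their depth and centring. For Gabre the gene at rank 2 of 100 was Gabrq (r = 0.54, Spearman 0.51, 83 samples), behind Dbh, the gene of the enzyme that makes noradrenaline (r = 0.58, 42 samples), and before Grpr, a bombesin receptor gene (r = 0.37, 59 samples). For Gabrq the gene at rank 1 of 108 was Gabre, followed by Trhr, the receptor gene for thyrotropin-releasing hormone (r = 0.44, 59 samples), and Chat (r = 0.39, 115 samples). Gabre and Gabrq, whose detection also went together, were thus near the top of each other's list, whereas the median gene had r of 0.03 with Gabre and -0.02 with Gabrq. Gabrb1 ran most like Cacna1b and Cacna1e, genes of voltage-gated calcium channels (r = 0.59 and 0.57, 160 samples each), and Chat (r = 0.49, 132 samples), with Gabra2 at rank 4 of 115. Gabra2 ran most like the orexin receptor gene Hcrtr2 (r = 0.56, 50 samples), the nicotinic receptor gene Chrna7 (r = 0.48, Spearman 0.63, 133 samples) and Gabrb1 (r = 0.44, Spearman 0.53, 149 samples). For Gad1 and Gad2, r with the 4 members was between -0.27 and 0.14 where at least 40 samples had both genes.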

How the data were processed

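The deposited table holds Ct values as the authors exported them from the instrument, with no normalization, in 218 columns; undetected assays are empty. Preamplification and RT-qPCR are as the study's methods describe; which chip held which sample is not given in these sources, so chip was not tested. A sample needed a Ct in 25% of the assays: this kept 190 columns, as many as the study counts in total. The sham group differs from the study's count, and its methods state a stricter rule. A limit of 50% was an alternative (85 samples). Repeat runs were combined as the mean of the runs with a Ct. Animals were the replicates, and a share needed 2 samples per animal. Shares (genes detected in 10% to 95% of samples) and mean levels (2 detected samples per animal) were fitted for all genes by limma (version 3.58.1, under R 4.3.3; two-sided, Benjamini-Hochberg adjusted); where a gene lacked an animal's value the fit used the others. Exact permutations over animals used Python 3.11.15. The fits were tested on simulated data. Alternatives varied limits, runs, scale, filter, centring, undetected values, sample type, depth, unit of test, replicate number as a block and each animal. Members and lists were chosen with earlier results of these data known. All 165 symbols matched RefSeq when case was ignored; 1 RIPC single neuron with a title like those of another animal was kept under its animal label, and dropping it, like leaving out Ct values over 20 cycles, was an alternative chosen after seeing the data. Named were the 4 members, the 3 genes most like each in level, genes of the rest of the pathway (1 item of the panel is not reported here), and up to 3 called genes per comparison.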

Additional observations from a re-analysis of the deposited data

Results flagged for a closer look

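For Gabra2, the share in single neurons minus that in pools was 50 percentage points in RIPC replicate 1, far above the other 7 animals, of which the nearest was at -9.26. The level of Gabra2 in single neurons minus that in pools was -1.78 cycles in RIPC replicate 3, against -0.76 in the nearest of the 6 other animals, and the single neuron at -9.11 cycles that enters that mean is the one whose title is like those of another animal. Without it the mean difference over animals was -0.50 in place of -0.64 cycles. These were 2 of 24 groups examined in this way, and chance alone gives about 1 in 20.

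Samples under the limit of 25% of the assays were used in no comparison, and some held member transcripts. Gabra2 had a Ct in 6 of these 27 samples (22.2%) and Gabrb1 in 9 (33.3%), above the 11.1% that a count of 0 allows. That limit shows only that these transcripts were present, not that they stand out from other genes. These samples had a median of 30.0 of the 168 assays with a Ct, and the members were not compared with all genes in them. Gabre was found in 3 and Gabrq in 2.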

How the results depend on the processing

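No member passed limma's threshold between treatments or sides under any alternative. Signs of some differences turned, wide ones among them, and the cause was not tested. Over the alternatives, 94 results of members were reversed and 616 were the same. Member values given below for an alternative are, unless a call is named, those whose sign differed from the main result. Named in the order RIPC against sham, RIPC against naive, sham against naive, single neurons in place of pools gave shares of 34.0, 3.57 and -30.4 percentage points for Gabra2, 15.1, 18.3 and 3.20 for Gabrb1, and 8.09, 29.2 and 21.1 for Gabre. They gave 13.3 for Gabrq against sham and -28.4 for sham against naive. Levels in single neurons were -0.12 for Gabra2 and 2.61 for Gabrq (RIPC against sham), 0.34 for Gabrb1 (RIPC against naive) and 0.17 for Gabra2 (sham against naive).

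With 50% of the assays required, shares were 5.95 for Gabrq (RIPC against sham), and 2.53 for Gabre and -7.14 for Gabrq (sham against naive). Levels were 0.15 and 0.26 for Gabrb1 and Gabrq against sham, 0.14 and 0.32 for RIPC against naive, and -0.00795 and 0.0639 for sham against naive. With mean depth as a covariate, shares were 3.50 for Gabrq (RIPC against sham), and -6.93 for Gabra2 and -9.82 for Gabrq (sham against naive). The arcsine scale gave 0.0256 for Gabre (sham against naive).

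With undetected values at a floor, levels of Gabra2 were -1.17, -0.54 and 0.62 in the 3 contrasts and 0.68 left against right. Those of sham against naive were -0.41 for Gabrb1 and 0.30 for Gabrq, and Gabre in single neurons against pools was -2.97. Centring on all detected assays gave 0.0490 for Gabre and 0.10 for Gabrq (RIPC against sham), 0.0592 for Gabrb1 (RIPC against naive), and -0.60 for Gabrb1 and -0.33 for Gabre in single neurons against pools. No centring gave 0.15, 0.24, -1.41 and -1.21 for Gabrq (RIPC against sham), Gabrb1 (RIPC against naive), and Gabrb1 and Gabre (single neurons against pools), and -0.0592 for Gabre left against right. Left against right, pools alone gave -7.95 percentage points for the share of Gabrb1 and 0.0375 for the level of Gabra2, and single neurons alone gave -0.0647 for the level of Gabrb1.

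Same-numbered animals were different rats, and the correlations of their deviations ran from -0.326 to 0.366 by share and from -0.471 to 0.283 by level, so the numbers were not taken as pairs. With the replicate number as a block, 0 genes were called in every pool contrast, and the level turned sign for Gabrq (RIPC against sham, 0.12) and Gabrb1 (sham against naive, -0.0352).

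Taking pools as the unit, Fisher's exact test gave 10, 8 and 7 genes and the methods' test of levels 8, 10 and 7 genes at an unadjusted p under 0.05 in the 3 contrasts. After adjustment, 1 gene was left for the level of RIPC against naive. With pools as the unit, the difference in mean level of RIPC minus sham was 0.11 cycles for Gabre and 0.12 cycles for Gabrq. Counted by pool, RIPC and sham had Gabra2 in 12 of 18 and 42 of 46, Gabrb1 in 12 of 18 and 40 of 46, Gabre in 11 of 18 and 31 of 46, and Gabrq in 11 of 18 and 38 of 46. Naive pools had Gabrb1 in 23 of 24. RIPC replicate 1 weighs heavily in such counts, with Gabra2 in 2 and Gabrb1 in 3 of its 8 pools. Pools of 1 animal are not replicates.

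Leaving out each animal in turn, RIPC against sham ran from -30.0 to 7.49 for the share of Gabra2, -24.2 to 7.08 for Gabrb1 and -27.2 to 10.3 for Gabrq, each highest without RIPC replicate 1. RIPC against naive ran from -19.7 to 17.8 for Gabra2 and -19.3 to 18.2 for Gabrq, and sham against naive from -11.0 to 7.21 for Gabre. Levels of RIPC against sham ran from -0.99 to 0.27 for Gabrb1, -0.49 to 0.27 for Gabre and -0.30 to 0.50 for Gabrq. The upper end for Gabre has only RIPC replicate 1 left in its group. Those of RIPC against naive ran from -0.0603 to 0.48 for Gabra2, -0.84 to 0.42 for Gabrb1 and -1.47 to 0.0890 for Gabrq, and those of sham against naive from -0.10 to 0.36 for Gabrb1 and -1.44 to 0.12 for Gabrq. Left against right ran from -2.27 to 5.17 (Gabrb1, share), -2.60 to 6.92 (Gabrq, share) and -0.22 to 0.44 (Gabre, level).

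Single neurons against pools gave 5 to 57 genes by share. Gabrb1 ran from -4.31 to 8.66 by share and -0.20 to 0.19 by level. Gabre passed the threshold on the arcsine scale (limma adjusted p = 0.0442) and Gabra2 by level without centring (adjusted p = 0.0356), where 10 genes were called, against 1 with the floor. With 50% of the assays required, too few animals had single neurons for this comparison. Shares of members were higher in single neurons with more other genes detected, and whether a missing Ct in a neuron with few reflects depth was not tested.

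Dropping the RIPC neuron of uncertain animal, an alternative chosen after seeing the data, left the calls of members as they were and gave 19 genes for single neurons against pools by share. In single neurons it gave shares of 33.4 and 2.96 for Gabra2, 14.8 and 18.0 for Gabrb1 and 9.60 and 30.7 for Gabre against sham and naive, 15.1 for Gabrq against sham, and a level of 0.39 for Gabrb1 against naive. Leaving out Ct values over 20 cycles, also chosen after seeing the data, gave a level of 0.89 for Gabrq in single neurons (RIPC against sham).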
